A study of Mus musculus with 35 samples.

Results

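Duxf3 is a gene of the Dux family on mouse chromosome 10, known to lie in a repeated array. The RefSeq annotation used here gives 1 gene of the region a Dux symbol. The repeat units themselves were not examined, since no genome sequence was used. Peaks of tagged NELFA were taken by position alone, as those on chromosome 10 with a summit from 58150000 to 58300000 (mm10), a window of 150 kb. This gave 17 of the 59485 peaks of the deposited list. The cells were E14, a mouse embryonic stem cell line, in medium with serum, LIF and 2i, and in them a doxycycline-inducible transgene encodes NELFA with a Strep-HA tag, followed by P2A-EGFP in the design text. All 7 ChIP-seq libraries were from cells given doxycycline at 0.4 µg/ml for 16 h. There were 3 libraries precipitated with a first HA antibody, 1 with a second and 3 inputs, from 3 replicates. No library of uninduced cells is part of the ChIP-seq set, the transgene is expressed beside the native gene, and the labels do not say how many clones the line comprises. The list has no column for a single library, so no peak value has a replicate error. The 20 RNA-seq and 8 ATAC-seq libraries, including those of DUX KO and DUXWT cells, were not analysed here.

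Dux genes encode transcription factors with a pair of homeodomains, and human DUX4 is the counterpart. Mouse Dux is expressed for a short time at zygotic genome activation, in the early 2-cell embryo, and in the few cultured stem cells that enter the 2-cell-like state, where it switches on genes such as the Zscan4 family and the MERVL retroviral elements. NELFA is a subunit of the negative elongation factor, which holds RNA polymerase II shortly after the start of transcription. The series asked how NELFA relates to this state, and the peaks bear on where the tagged protein was found at the Dux locus.

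Peaks of tagged NELFA were called over nearly the whole of Duxf3 and over the sequence on both of its sides. Reads that align equally well to other copies of the array cannot be assigned to this one. Of the 3585 bp of the gene (58229505 to 58233089, minus strand), 3213 bp (89.6%) were covered by peaks, with folds of 7.60 and 7.44 over the local control. The fold of 7.60 had its summit near the 3′ end of the gene and rested on 255 reads. The fold of 7.44 had its summit 1178 bp into the gene, in a wide peak that took in the start, and rested on 425 reads. The counting intervals of the 2 folds overlap (6.70 to 8.59 and 6.75 to 8.18). The strong peaks stopped abruptly on the side of higher coordinates, and weak peaks of fold 1.86 to 2.18 lined the side of lower coordinates.

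The RefSeq sequences at the annotated starts are shown for the 3 genes of the window that have one. They place the peaks relative to those starts, and whether transcription begins there was not examined. The Duxf3 sequence was covered by a peak without holding a summit. That of Gm4981 held a summit, and that of Gcc2 had no peak. Each runs 5′ to 3′ on the minus strand for Duxf3 and Gm4981 and on the plus strand for Gcc2, from 250 bases before the start to 50 after it, and capitals mark the dinucleotide CG (GRCm38.p6, the assembly that mm10 names; in order chr10:58233040-58233339, chr10:58236611-58236910 and chr10:58255276-58255575).
Duxf3: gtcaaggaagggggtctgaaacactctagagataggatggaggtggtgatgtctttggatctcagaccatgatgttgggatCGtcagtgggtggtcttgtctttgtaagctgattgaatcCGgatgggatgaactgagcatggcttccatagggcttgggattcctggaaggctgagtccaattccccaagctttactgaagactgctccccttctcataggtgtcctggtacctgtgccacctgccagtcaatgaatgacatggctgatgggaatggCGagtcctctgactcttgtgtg
Gm4981: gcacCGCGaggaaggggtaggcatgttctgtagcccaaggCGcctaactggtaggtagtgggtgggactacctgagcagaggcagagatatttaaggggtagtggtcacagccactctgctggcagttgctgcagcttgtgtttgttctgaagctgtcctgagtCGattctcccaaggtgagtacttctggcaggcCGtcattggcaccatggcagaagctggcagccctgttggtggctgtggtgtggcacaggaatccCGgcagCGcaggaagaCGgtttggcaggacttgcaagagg
Gcc2: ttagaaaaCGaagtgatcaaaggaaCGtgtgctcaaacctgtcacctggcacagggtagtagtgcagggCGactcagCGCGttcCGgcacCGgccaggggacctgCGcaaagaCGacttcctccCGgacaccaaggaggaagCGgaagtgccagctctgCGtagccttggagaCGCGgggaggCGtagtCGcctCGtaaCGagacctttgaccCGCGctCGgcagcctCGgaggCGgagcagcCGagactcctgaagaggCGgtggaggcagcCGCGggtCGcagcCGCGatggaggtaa

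The Duxf3 sequence held 3 CG, against a median of 7 over 32851 RefSeq promoters of the same length, and its GC content was 51%, against a median of 52.7%. Gm4981 held 8 CG. Gcc2, which encodes a golgin of the trans-Golgi network, held 30. Short motifs were searched on both strands. The TATA box letters TATAAA, which 13.6% of all promoters hold, were in none of the 3 sequences. Neither were the GC box letters GGGCGG, held by 35.7% of promoters, nor the letters GAGAG, held by 62%. CCAAT was found 1 time in Duxf3, with its first base 72 bases before the start on the gene's strand, and 1 time in Gm4981 on the opposite strand; 37.4% of promoters hold it. These are matches of letters in a window of 300 bases. A peak overlapped 2987 (9.09%) of the promoters, and 1428 (4.35%) held a summit. The peak over the Duxf3 promoter covered all 300 bases. Each covered promoter was given the highest fold of any peak overlapping it, wherever that peak's summit lay. By this measure the fold of 7.44 was above that of 99.0% of the covered promoters, whose median was 2.36. It belongs to a summit 1178 bp into the gene, and enrichment within the promoter itself was not measured. At Gm4981, 199 of the 300 bases were covered, by a peak of fold 4.95.

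**Figure D1:**
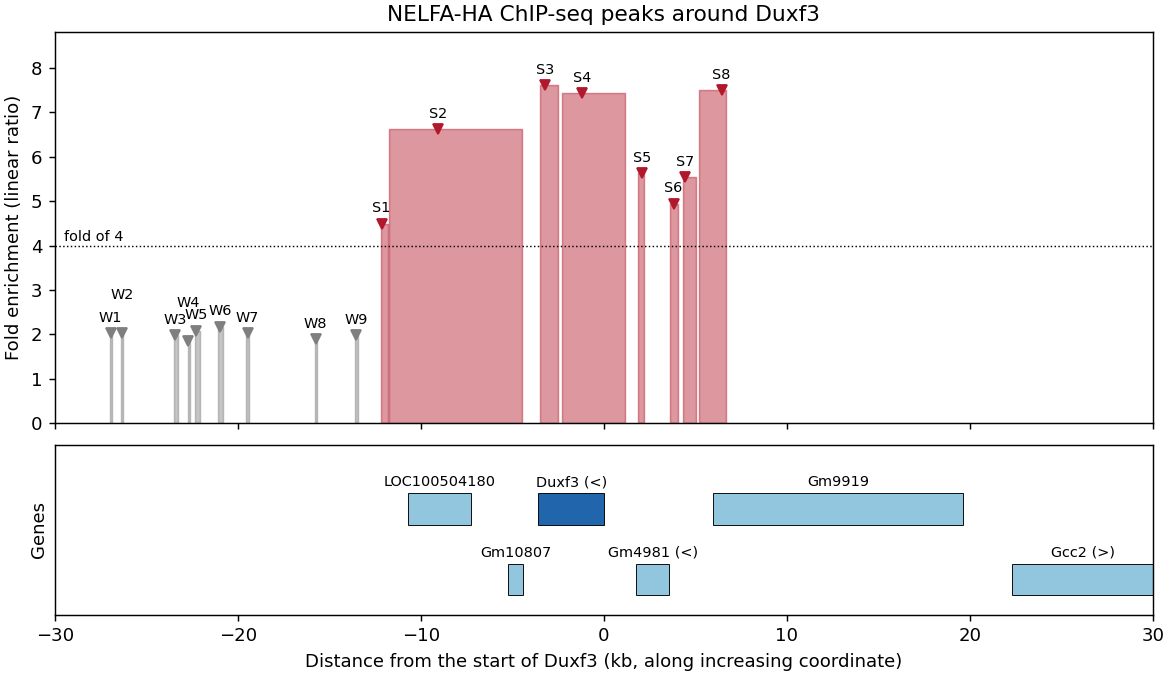
Peaks around Duxf3: each bar spans a peak's interval on the horizontal axis (distance from the start of Duxf3 in kb, along increasing coordinate) and its height is the deposited fold enrichment, a linear ratio; triangles mark summits, red peaks have a fold of at least 4 (S1 to S8) and grey ones less (W1 to W9). Boxes show RefSeq genes, with < or > for the strand where the promoter table gives it, and Gcc2 runs beyond the right edge. The strong peaks from S1 to S8 lie next to the weak ones on the left and have no peak to their right.

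The 17 peaks fell into strong and weak ones with nothing between them. The fold enrichment is the authors' own value for each peak, and a peak is called strong here when it is at least 4. In order of coordinate the weak peaks are named W1 to W9 and the strong ones S1 to S8. Strong peaks were 8 of the 17, where 3505 of the 59485 peaks of the list were (5.89%). The lowest strong fold, 4.50 at S1, was 2.06 times the highest weak one, 2.18 at W6. The median fold over the 17 peaks was 2.18, against 2.09 over the whole list, so the middle of the window's peaks did not stand apart and its upper part did. The strong peaks were wider, at 318 to 7235 bp (median 826.5), than the weak ones, at 96 to 280 bp (median 142), and the list had a median of 170 bp.

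Position also separated the 2 kinds. The 9 weak peaks lay between 58206096 and 58219644 and covered 11.3% of that stretch. The strong peaks began 1245 bp further on and ran from 58220890 to 58239760, covering 14888 of 18871 bp (78.9%). Of the 17 summits, 11 were on the lower-coordinate side of Duxf3, 2 in the gene and 4 on the higher-coordinate side. No further peak was called in the remaining 60240 bp of the window, over most of Gm9919 and the part of Gcc2 that it holds. The nearest peak below those of the window ended 355.7 kb from W1, and the nearest above them began 207.1 kb from S8. In the same grid of 150 kb windows over chromosomes 1 to 19, X and Y, 568 of 18124 windows (3.13%) held at least 17 peaks, and the median window held 1. At least 8 peaks of fold 4 or more were found in 93 windows (0.513%). On chromosome 10 there were 2 such windows of 869, this one included.

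Duxf3 itself held 2 summits. S3 (58229613 to 58230555, fold 7.60) had the first, at 58229872, which is 367 bp from the 3′ end. S4 (58230820 to 58234217, fold 7.44) had the second, at 58231911. S4 reached 1128 bp beyond the start of the gene. The 372 bases of Duxf3 outside peaks were the last 108 at its 3′ end and the 264 between the 2 intervals. A summit within 1 kb of either boundary was found for 4120 of 21883 protein-coding genes (18.8%), and Duxf3 ranked 27 among them by fold. The promoter table gives the strand of 17491 of these genes. A summit lay within 1 kb of the start for 3039 of them (17.4%) and within 1 kb of the end for 767 (4.39%). Of the 3349 with either, 310 (9.26%) had it at the end only, and Duxf3 was among these, ranking 3 in fold. Each interval carries 1 summit however wide it is, and in S4 that summit lay 178 bp too far into the gene to count as one at the start.

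The neighbours of Duxf3 in the window were covered to very different degrees. LOC100504180, a predicted protein-coding gene (58222403 to 58225832), lay wholly within S2, the widest of the 17 peaks (58221366 to 58228600, 7235 bp), whose fold was 6.62 and whose summit at 58224021 was in this gene. S2 made up 48.6% of the bases under strong peaks. Its width was above that of 99.9% of all peaks in the list. The pseudogene Gm10807 (58227857 to 58228664) was covered by the same interval over 92.1% of its length and held no summit. Gm4981 (58234848 to 58236660, minus strand) was covered over 318 of 1813 bp (17.5%) by S5, of fold 5.63, whose summit was 333 bp from the 3′ end, within the gene. S6, of fold 4.95, began 52 bp upstream of the start of Gm4981, and its summit was 237 bp upstream of it. S7, of fold 5.54 (58237383 to 58238092), overlapped no annotated gene, nor did S1 (58220890 to 58221276). S8, of fold 7.50 (58238276 to 58239760), overlapped one end of the RNA gene Gm9919 over 727 of 13669 bp (5.32%). Gcc2 was not covered at any base. Neighbouring strong summits were 607 to 5851 bp apart, with a median of 2039 bp, and the spacing was not regular.

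The deposited fold and p of each peak could be turned back into the number of reads behind it. MACS2 reports a fold of pileup plus 1 over local control plus 1, and a Poisson p of the same pileup and control, so both can be solved for. The pileup, the number of aligned reads or fragments over the summit, came out whole within 0.05 for all 56936 peaks of the list with a pileup under 100. It also did so for the 17 peaks here. The local control level has a lowest and commonest value of 21.03 reads, which 98.3% of the 59320 solved peaks shared, and it is higher where the input holds more reads. The 95% exact Poisson intervals given with the folds take the control as known and cover counting error only, not the spread between replicates.

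The strong peaks rested on 99 to 446 reads at the summit and the weak ones on 40 to 47, all of the latter at the common control level. S1 had 99 reads, S2 446, S3 255 and S4 425. S5 had 129 reads, S6 108, S7 121 and S8 352. The 4 peaks with most reads were thus S2, S4, S8 and S3. The summit of S2 was in LOC100504180, that of S4 in the interior of Duxf3, that of S8 in Gm9919 and that of S3 near the 3′ end of Duxf3. By fold the order was S3, S8, S4 and S2. The interval of the fold was 6.70 to 8.59 at S3, 6.74 to 8.33 at S8, 6.75 to 8.18 at S4 and 6.02 to 7.26 at S2. These intervals overlap, so the order of the 4 folds, and with it the place of the highest one, is not settled at this depth. S1, with 3.66 to 5.47, and S6, with 4.07 to 5.96, lay below all 4. S5 (4.71 to 6.69) and S7 (4.60 to 6.61) overlapped S2 only. In pileup, S2 (406 to 489) and S4 (386 to 467) overlapped each other, and S3 (225 to 288) was below S8 (316 to 391).

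**Figure D2:**
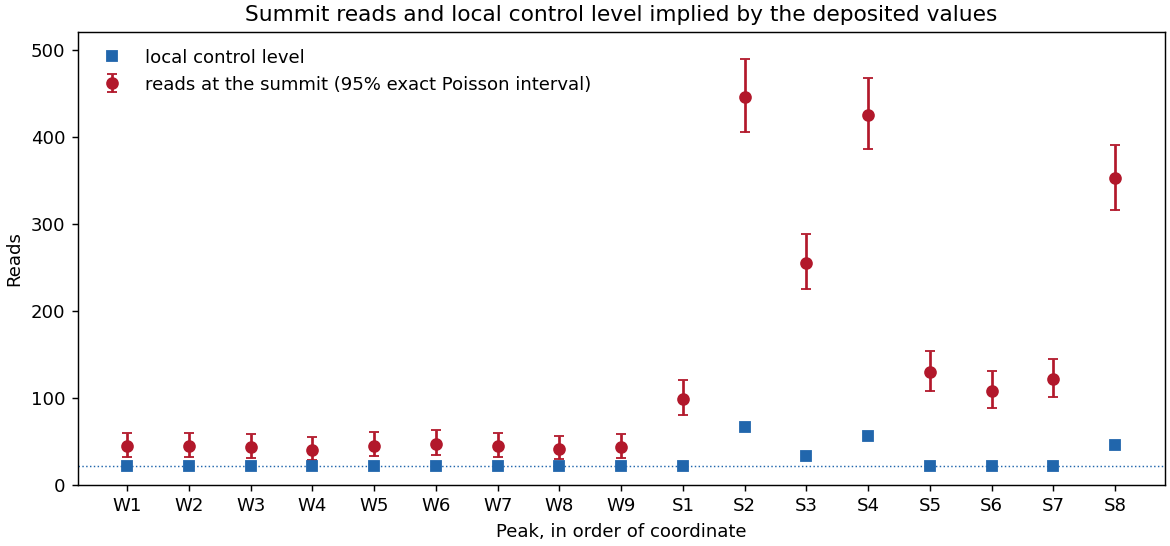
Summit pileup (red circles, in reads, with 95% exact Poisson intervals) and local control level (blue squares, in reads) for the 17 peaks in order of coordinate, solved from the deposited fold and p; the dotted line is the common control level of 21.03. S2, S4, S8 and S3 have both the highest pileups and the highest control levels.

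The control level was raised under the same peaks that had the most reads. It was 66.5 reads at S2, 56.3 at S4, 46.0 at S8 and 32.7 at S3, that is 3.16, 2.68, 2.19 and 1.55 times the common level. It was 22.1 at S5, 21.2 at S1 and 21.03 at S6 and S7. A control above the common level was found at 6 of the 17 peaks, against 1006 of 59320 solved peaks (1.70%). All 6 were strong peaks, and the like share among the strong peaks of the list was not counted. Runs of strong peaks elsewhere had median control levels of up to 56.3, so a raised control is not particular to this locus. Between the 2 peaks of Duxf3, S4 had 1.67 times the pileup of S3 and 1.72 times its control. After the control was subtracted, S2 kept 379 reads, S4 369, S8 306 and S3 222. Copies of a repeated array share sequence, so reads that align equally well to several copies cannot be assigned to Duxf3 rather than to another copy. The sources used here do not give how such reads were treated, and the peak names carry the tag MAPQ0 without an explanation. The part that the raised control or shared reads had in the folds was not tested.

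**Figure D3:**
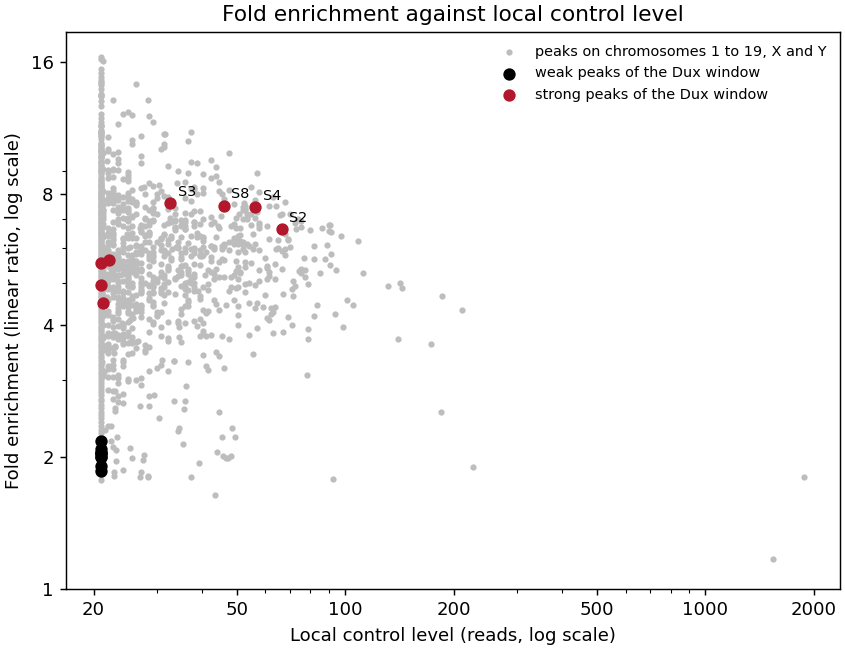
Fold enrichment (vertical, linear ratio on a log axis) against local control level (horizontal, reads on a log axis) for solved peaks on chromosomes 1 to 19, X and Y in grey, the weak peaks of the Dux window in black and the strong ones in red. S2, S3, S4 and S8 sit to the right of the column of peaks at the common level of 21.03, at control levels of 32.7 to 66.5.

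The run of strong peaks at Duxf3 was set beside others in the genome. A run was counted where at least 5 consecutive peaks had a fold of 4 or more and summits under 5 kb apart. There were 38, on 11 chromosomes. The Duxf3 run held the 6 peaks from S3 to S8 (58229613 to 58239760) and was the only one of the 38 on chromosome 10. S2 did not join it because its summit was 5851 bp from that of S3. In number of peaks 7 runs were longer, and 13 held 6, the Duxf3 run included. The 5 longest were on chromosome X at Mid1 and Erdr1 (10 peaks), on chromosome Y over no annotated gene (10), on chromosome 14 at Gm32966 and Gm3115 (9), on chromosome 9 over no annotated gene (8) and on chromosome 8 at the 5S ribosomal RNA genes from n-R5s127 (8). Of the 38, 17 overlapped no annotated gene. The median fold of the Duxf3 run was 6.53, which ranked 6, where the runs spanned 4.90 to 7.99. Its median control level was 27.4 and ranked 14 of the 37 with solved values, which spanned 21.03 to 56.3 with a median of 24.1. Peaks without a solved value were left out of these medians, such as 3 of the 10 in the chromosome X run. The rank by control level is therefore approximate.

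**Figure D4:**
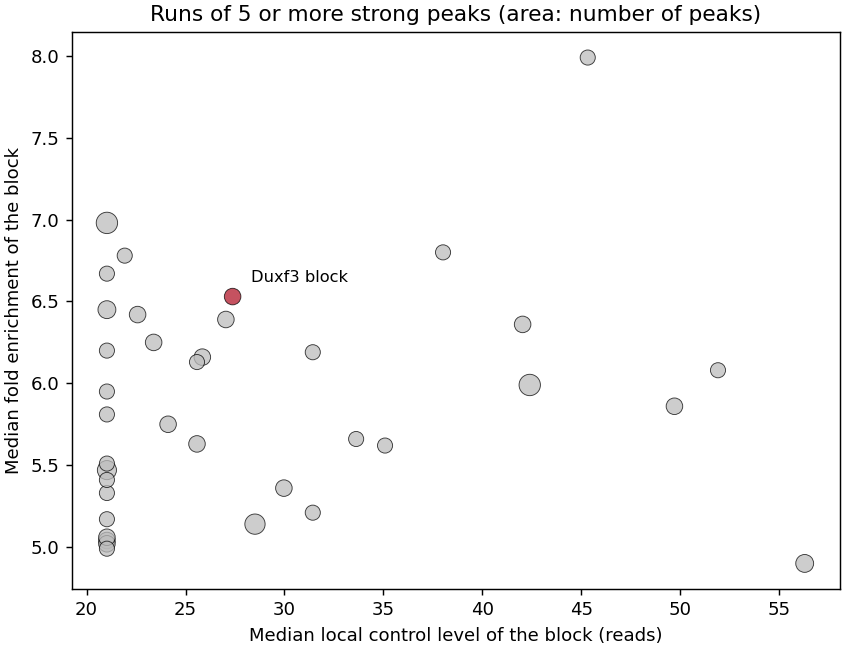
Median fold enrichment against median local control level (reads) for the 37 runs of 5 or more strong peaks with solved control levels. The median control level leaves out peaks without a solved value. The area of each circle is set by its number of peaks, and the Duxf3 run is in red. The Duxf3 run sits at a control level of 27.4 and a median fold of 6.53, among the higher folds.

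Genes that act on Dux or that Dux switches on were compared with Duxf3 by the end of the gene that held the summit. Of 16 regulators, 8 had a summit within 1 kb of a boundary, and so did 20 of 24 targets. The share over all protein-coding genes was 18.8%. Both lists were chosen with earlier results of these data known, so no enrichment can be read from these shares. Of the targets, 2 (Zscan4a and Zscan4e) are pseudogenes, and neighbouring copies in a family are not independent. All 8 regulators had a summit at the start, and they include Nelfa, the gene that the transgene carries. Of those 20 targets, all 10 with a known strand had a summit at the start. Of these 10, 6 had one at the end too. Nelfa was the 1 regulator with a summit at the end too. Of the 3349 protein-coding genes of known strand with a boundary summit, 3039 had one at the start and 457 at both ends. A summit at the start is thus not particular to these lists. Duxf3 had one within 1 kb of the end and none within 1 kb of the start, but the summit of S4 was 1178 bp from the start, so within 2 kb Duxf3 had one at both ends. Among the regulators the highest boundary folds were 7.76 at Nelfa, where reads of the transgene and of the native gene cannot be told apart, 4.77 at Trim28, a co-repressor of retroviral elements, and 3.49 at Ncl, which encodes nucleolin. Dppa2 and Dppa4, whose products activate Dux, had no summit in the gene or within 1 kb of it. Among the targets the gene models Gm4340 (8.58), Gm6763 (6.81) and Gm4027 (6.40) had the highest boundary folds, and Gm4340, whose 8.58 was at its end, was the 1 target above Duxf3 by this measure. Counting summits anywhere in a gene or within 1 kb of it, Nelfa reached 17.2, Sp110 13.06 and Gm4340 8.58. All of these were above the 7.60 of Duxf3. Zfp352, a marker of the state, had 3.09.

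The Zscan4 genes, a tandem family downstream of Dux, had many peaks, of lower fold than those in Duxf3. The 6 genes had 32 summits in them or within 1 kb, and the highest fold of each gene was 2.95 to 3.54. By the same measure the highest fold of Duxf3 was 7.60. The weak peaks of the Dux window, of fold 1.86 to 2.18, lay below the highest fold of each Zscan4 gene. The highest peaks of all 6 Zscan4 genes were at the common control level, as were 98.3% of all solved peaks of the list. So were those of 19 of the 20 targets with a summit, which include the 6 Zscan4 genes, while Sp110 reached 22.7. At Duxf3 the control level under the highest peak was 32.7. The Duxbl genes of chromosome 14 (Duxbl1, Duxbl2 and Duxbl3) also carry Dux in their symbols. Whether other gene models, such as Gm4981 in the window, are related to Dux was not examined. No summit lay in any of the 3 Duxbl genes or within 1 kb of them. These differences between loci come from 1 list and were not tested.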

How the data were processed

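The authors deposited 1 narrowPeak list for the 4 immunoprecipitated and 3 input libraries. Trim Galore 0.4.2, Bowtie2 2.2.9, SAMtools 1.4, MACS2 (no version) and mm10 are named in the submitters' processing notes; call settings, pooling and the treatment of reads with several alignments were not given in the sources used here. The deposited fold enrichment is a linear ratio at the summit. The deposited −log10 p-value and q-value are the peak caller's, and the lowest −log10 q was 1.31.

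Peaks were taken by summit (column 2 plus column 10) and are given 1-based. Genes and strands came from RefSeq tables of GRCm38.p6; 17491 of 21883 protein-coding genes had a strand. Pileup and control were solved from fold and p with a pseudocount of 1, leaving out 165 peaks with a −log10 p of 300 or more. The solving step was tried on data simulated with the same formulas. That trial could not show whether the deposited values follow these formulas. No test across samples could be made from 1 list. Named were all genes of the window, those at the 5 longest runs, and of each list the 3 highest with Dppa2, Dppa4, Zfp352 and Zscan4. The Duxbl comparison was chosen after the data were seen. The members and lists were chosen with earlier results of these data known. Alternatives changed the window, q limit, fold limit, spacing and boundary distance. The software was Python 3.11.15 with scipy 1.17.1, numpy 2.4.6, matplotlib 3.10.9 and pandas 2.3.3.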

Additional observations from a re-analysis of the deposited data

How the results depend on the processing

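The count of 17 peaks was the same when the interval rather than the summit had to lie in the window and with a 300 kb window, and was 16 with a 50 kb window. It was 8 with a −log10 q of at least 4, which left only the strong peaks, and 10 at or above the list's median fold. The median fold of 2.18 was also found with 300 kb, and was 6.13 with a −log10 q of at least 4 and 3.34 with 50 kb. The run at Duxf3 held 6 peaks also at a fold of 3, 3 at a fold of 5, 1 with summits under 2 kb apart and 8 with summits under 10 kb apart. The highest fold at Duxf3 was 7.60 within 1 and within 5 kb. Peaks covered 10.9% of the window, 9.93% with a −log10 q of at least 4 and 32.6% of a 50 kb window. Of the 40 regulators and targets 28 had a boundary summit, and 24 to 30 under other distances and the q limit. Without the pseudocount, tried after the data were seen, 7.76% of the pileups under 100 were whole in place of 100%. No paired analysis was possible because the peak list has no value per replicate and no result comes from a test across samples; for the same reason no library could be left out. The reads behind a fold limit its precision, and the spread between replicates is unknown.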

Other observations

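Beyond the peaks of the window, the gap of 207.1 kb without a peak on their higher-coordinate side took in Gcc2 and Lims1. Lims1 encodes an adaptor protein of integrin adhesions. The gap ended at Ranbp2, which encodes a nuclear pore protein. There a single peak (58446907 to 58447341) had a fold of 2.36, a pileup of 51 reads and the common control level of 21.03, with its summit 252 bp inside the lower-coordinate end of the gene. The last peak before those of the window, at 57850158 to 57850346, had the same fold, pileup and control level.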
